A study of Mus musculus with 3 samples.

Results

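The cells described here are an early paraxial mesoderm population of the gastrulating mouse embryo, and they were picked by 10 genes. A cell was a member when unique molecular identifiers (UMIs, 1 per counted RNA molecule) were detected for at least 2 of Tcf15, Foxc1, Foxc2, Alx1 and Meox1, and when no UMI was seen of Tbx6, Hes7, Hand1, Etv2 and Eomes. Members made up 332 of 21573 kept cells. There were 34 of 7941 at embryonic day 7.0 (E7.0), which is 0.428% (95% Clopper-Pearson interval 0.297 to 0.598), 89 of 5194 at E7.25, which is 1.71% (1.38 to 2.10), and 209 of 8438 in the posterior part of the E7.5 embryo, which is 2.48% (2.16 to 2.83). With fewer than 50 members at E7.0, only the number of cells and the rule's own genes are given for that library.

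Paraxial mesoderm leaves the primitive streak on both sides of the midline. In the trunk it passes through a presomitic state, marked by Tbx6, and is then cut into somites, the blocks that form vertebrae, muscle and dermis. The most rostral paraxial mesoderm lies beside the brain, forms no lasting somites and contributes to the skull and head muscles. FGF and WNT signals from the posterior end of the embryo, together with retinoic acid, set positions along this axis, and Hox genes record them.

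The embryos were normal and of the ARC mouse strain, and each stage was 1 droplet library, whose 3' reads were counted as UMIs. E7.0 and E7.25 are labelled as embryo, and the E7.5 library as posterior embryo. Stage, library and, at E7.5, region cannot be told apart, and the labels do not say which library used which version of the 10x kit. The number of embryos pooled in each library is not given in the sources used here. No test between groups was possible with 1 library per group, and all intervals below are exact 95% intervals for counting error only. The libraries held 48836272 to 111010034 UMIs. Members had a median of 8977 UMIs per cell at E7.25 and 9060 in the E7.5 posterior library, beside 8298 and 9254.5 over all kept cells, and median mitochondrial shares of 2.31% and 3.52%. Between 14 and 35 cell barcodes were shared by each pair of libraries. Predicted doublets were left in, and 5 members at E7.25 and 7 in the E7.5 posterior library were marked as such.

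Among the genes that chose the cells, Foxc2, a forkhead factor of paraxial and other mesoderm, was detected in 66 of 89 members at E7.25 (74.2%) and 166 of 209 at E7.5 posterior (79.4%). Its paralog Foxc1 was detected in 55 (61.8%) and 111 (53.1%). Tcf15, also called Paraxis, is needed for the epithelial form of somites, and it was detected in 47 (52.8%) and 136 (65.1%). Alx1, a homeobox gene of head mesenchyme, was detected in 33 (37.1%) and 75 (35.9%). Meox1, a homeobox gene of somites, was detected in 2 and 10 members and in none of the 34 at E7.0, so the population rests on the other markers. The most frequent pair was Foxc1 with Foxc2 at E7.25, found together in 39 members, and Tcf15 with Foxc2 at E7.5 posterior, found together in 100.

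**Figure D1:**
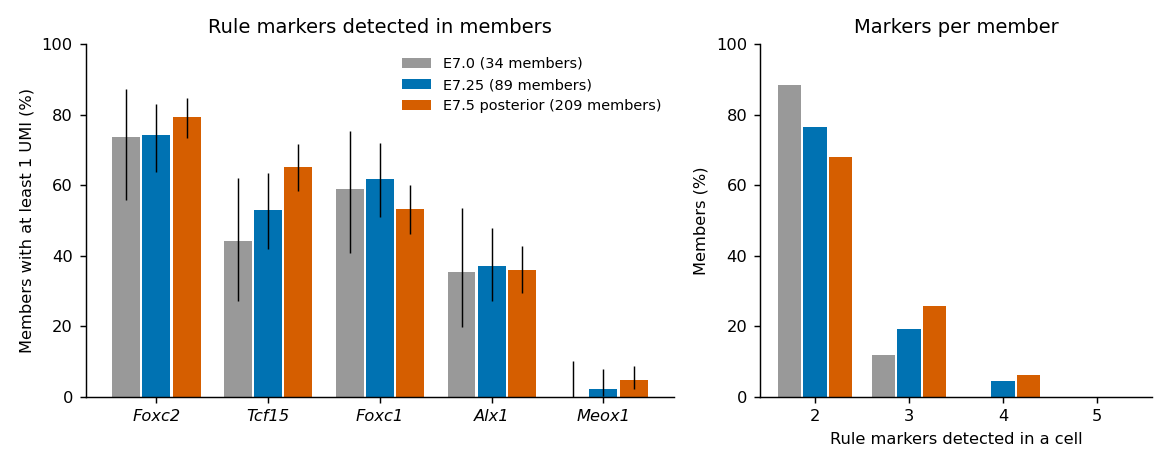
Left, share of members (%) with at least 1 UMI of each of the 5 marker genes of the rule, by library, with 95% Clopper-Pearson intervals; right, share of members (%) by how many of the 5 were detected in the cell. Meox1 stands at 0, 2.25 and 4.78%, and cells with exactly 2 markers make up most members in each library.

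Most members were just inside the limit. Exactly 2 markers were seen in 68 of 89 members at E7.25 and 142 of 209 at E7.5 posterior, and no member had all 5. Many of these calls rest on a single molecule: 40 of the 55 cells with Foxc1 at E7.25 had 1 UMI of it, as had 83 of 111 at E7.5 posterior. Cells just outside the limit, with 1 marker and no excluded gene, numbered 183 and 352. In these outside cells Myl7 was at 396 CPM (UMIs scaled to a total of 1000000 over the summed cells) at E7.25 against 764 CPM in members with exactly 2 markers, and at 230 against 403 CPM at E7.5 posterior. Epcam, an adhesion gene of epithelia, was at 149 against 54.6 CPM and at 187 against 52.0 CPM.

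The excluded genes removed more cells than they left. Of 227 cells with 2 or more markers at E7.25, 138 had a UMI of at least 1 excluded gene, and of 611 at E7.5 posterior 402 had. At E7.0 the number was 257 of 291, of which 216 had Eomes, a T-box gene of the early streak. Tbx6 was the most frequent excluded gene at E7.5 posterior, in 188 cells.

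Members were set beside presomitic cells of the same library, called Tbx6 cells here, which had Tbx6 with at least 1 of Msgn1, Hes7, Dll1 and Dll3 and no Hand1, Etv2 or Eomes. There were 170 such cells at E7.25 and 699 in the E7.5 posterior library. Since the rule excludes Tbx6, this contrast is part of how the members were chosen, and its values are a description. Of 5673 genes measured at E7.25 (at least 20 CPM on either side), 3% were at least 2-fold higher and 2.7% at least 2-fold lower in members, 5.69% in all. That is 170 genes higher and 153 lower, and trimmed mean (TMM) scaling gave 140 and 185, which reverses the balance. Of 5383 genes at E7.5 posterior, 1.41% were higher and 2.58% lower by that limit, 3.99% in all. Against all other kept cells, 2.47% of genes were higher and 5.49% lower at E7.25 (7.95% in all), and 1.75% were higher and 3.28% lower at E7.5 posterior (5.03% in all).

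Cer1, Sfrp1, Adrb3 and Otx2 were higher in members than in Tbx6 cells in both libraries, and T, Fst and Hoxb1 lower, with each value given below. One of the lowest genes in members was T, also called Brachyury, a T-box factor of the streak and notochord (chr17:8434423-8442496, plus strand, GRCm38). T stood at 57.5 CPM in members against 634 CPM in Tbx6 cells at E7.25, and at 64.8 against 592 CPM at E7.5 posterior. Otx2, a homeobox factor of the head (chr14:48657677-48673819, minus strand), was on the other side, at 114 against 32.9 CPM and 81.3 against 21.1 CPM. Cer1, a secreted antagonist of NODAL and BMP (chr4:82881751-82885148, minus strand), was at 65.9 against 6.46 CPM and 65.3 against 4.85 CPM.

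The sequences upstream of these 3 genes are shown because the genes mark the opposite ends of this contrast. They are RefSeq windows on GRCm38.p6, each 250 bases ending at the base before a RefSeq start, read 5' to 3' on the gene's strand, in lower case with motif matches in capitals. They lie at chr17:8434173-8434422 (plus) for T, chr4:82885152-82885401 (minus) for Cer1 and chr14:48665110-48665359 (minus) for Otx2, the third of 4 windows listed for that gene. This window is shown because it is the 1 of the 4 with a match to a motif searched, and the other 3 hold none.
T: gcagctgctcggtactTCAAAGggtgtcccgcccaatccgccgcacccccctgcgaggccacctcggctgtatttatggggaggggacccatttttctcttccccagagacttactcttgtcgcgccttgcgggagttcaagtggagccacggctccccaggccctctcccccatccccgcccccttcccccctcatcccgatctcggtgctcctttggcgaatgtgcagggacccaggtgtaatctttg
Cer1: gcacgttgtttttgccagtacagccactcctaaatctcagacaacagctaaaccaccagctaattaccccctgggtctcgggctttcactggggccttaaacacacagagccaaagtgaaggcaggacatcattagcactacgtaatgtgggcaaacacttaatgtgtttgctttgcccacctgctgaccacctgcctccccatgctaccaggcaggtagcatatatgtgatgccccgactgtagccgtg
Otx2: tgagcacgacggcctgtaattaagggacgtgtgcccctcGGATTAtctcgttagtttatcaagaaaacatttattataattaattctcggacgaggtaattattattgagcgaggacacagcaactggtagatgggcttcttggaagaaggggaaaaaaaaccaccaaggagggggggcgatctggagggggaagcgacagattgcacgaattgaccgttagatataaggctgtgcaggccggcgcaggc
The motifs searched on both strands were TAATCC, a core site of OTX and GSC factors, CTTTGA, a core of LEF and TCF factors, and GTAAACA, a forkhead core. TAATCC or its reverse complement is in 6.25% of all 32851 windows, CTTTGA in 13.8% and GTAAACA in 3.17%. The T window holds 1 match to CTTTGA, read as its reverse complement, and the Otx2 window 1 match to TAATCC, likewise on the other strand. None of the 3 motifs is in the Cer1 window. Of the 12 genes ranked highest and the 12 ranked lowest against Tbx6 cells, 7 in each direction had a window, and TAATCC was in 1 and 1 of these, CTTTGA in 0 and 2, and GTAAACA in 0 and 1. Here a gene counted when any of its windows matched, so these counts are not on the scale of the shares per window. A match is a stretch of letters and not a known binding site.

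The 12 genes with the highest ratio over Tbx6 cells in both libraries included Adrb3, Cer1, Sfrp1, Gchfr, Myl7, Pkdcc, Irx3, Apoc2, Ppp1r1a, Otx2 and Irx1. Sfrp1, a secreted WNT antagonist, was at 294 CPM in members (95% interval 258 to 333) against 23.9 CPM in Tbx6 cells at E7.25, a log2 ratio of 3.62 (3.12 to 4.16). At E7.5 posterior it was at 186 (167 to 206) against 18.3 CPM, a log2 ratio of 3.34 (3.06 to 3.64). It was seen in 65.1% of members against 10.5% of Tbx6 cells at E7.25, and in 41.5% against 5.87% at E7.5 posterior, after each cell was thinned to 5000 UMIs, which left out 3 members at E7.25 and 16 in the E7.5 posterior library. Without thinning the shares of members were 75.3% and 58.9%. In cells with Amn, Cubn and Apob, visceral endoderm used as a reference for free RNA, that share was 8.73% and 13.9%.

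Adrb3, an adrenergic receptor gene, was at 61.1 CPM against 2.58 CPM at E7.25 and 55.7 against 4.04 CPM at E7.5 posterior. Myl7, the atrial myosin light chain of early heart muscle, was at 803 (744 to 866) against 146 CPM and 453 (424 to 484) against 66.6 CPM. Both genes were thus higher in members in each library, by log2 4.56 and 3.79 for Adrb3 and 2.46 and 2.77 for Myl7. Pkdcc, a secreted kinase, had log2 ratios of 2.38 and 2.20. The Iroquois homeobox genes Irx3 and Irx1 had 2.01 and 1.94, and 1.75 and 2.49. Otx2 had 1.79 (1.28 to 2.31) and 1.94 (1.62 to 2.27), and it was detected in 41.9% of thinned members at E7.25 and 26.9% in the E7.5 posterior library, against 5.70% and 3.73% of the visceral endoderm reference cells. Unthinned, these shares of members were 51.7% and 39.7%.

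Apoc2, an apolipoprotein gene of visceral endoderm, owed much of its ratio to a few members. Its log2 ratio over Tbx6 cells was 2.17 at E7.25 and 1.94 in the E7.5 posterior library. Without the 3 members at E7.25 and the 1 at E7.5 posterior that had Amn, Cubn and Apob together, an alternative chosen after seeing the data, it was -0.57 and 0.77. The Tbx6 cells were not filtered in the same way, so these values do not give the direction of a difference between cleaned sets.

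**Figure D2:**
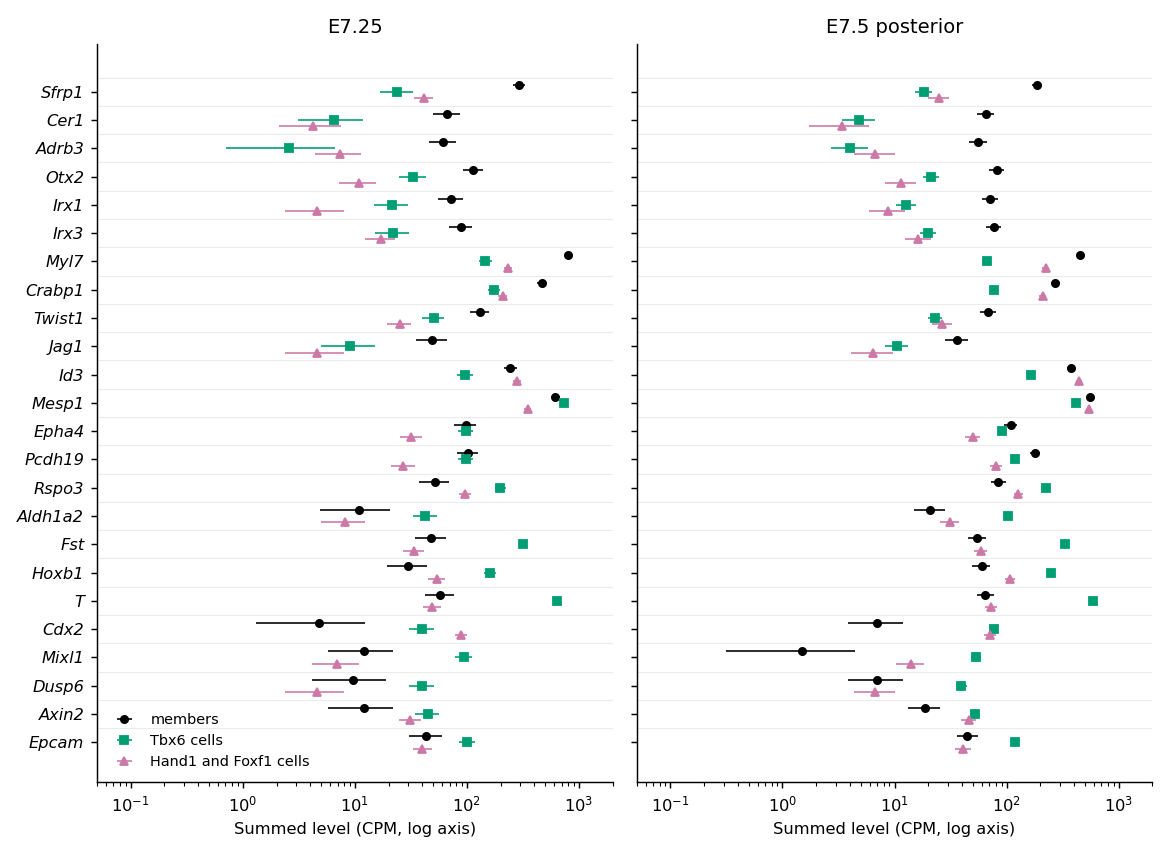
Level of selected genes (CPM of summed cells, log axis, with exact 95% Poisson intervals) in members, Tbx6 cells and cells with Hand1 and Foxf1, at E7.25 (left) and E7.5 posterior (right). Sfrp1, Cer1, Adrb3 and Otx2 stand highest in members in both libraries, and T, Fst and Hoxb1 in Tbx6 cells.

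The 12 genes with the lowest ratios in both libraries were T, Cdx2, Gal, Mixl1, Tcea3, Fst, Psors1c2, Lrp8, Hotairm1, Foxb1, Pmaip1 and Rtl8a. For T the log2 ratio was -3.46 (-3.91 to -3.04) at E7.25 and -3.19 (-3.46 to -2.94) at E7.5 posterior. T was detected in 10.5% of thinned members against 74.1% of Tbx6 cells at E7.25, and in 23.8% against 81.8% at E7.5 posterior, with 8.35% and 9.6% in the reference cells (unthinned, 17.98% and 29.7% of members). The interval of the E7.25 share of members (4.90 to 18.9) holds the share of the reference cells, so at that depth the 2 could not be told apart. The T molecules were unevenly spread among E7.25 members, with 1 UMI in the 33 with Alx1 and 47 in the 56 without.

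Fst, follistatin, an antagonist of activin and BMP, was at 48.0 against 316 CPM and at 54.7 against 334 CPM. Mixl1, a homeobox gene of the streak, was at 11.99 against 93.6 CPM and at 1.51 against 53.3 CPM, the latter from 3 UMIs. Cdx2, a caudal homeobox gene, was at 4.796 against 40.0 CPM and at 7.03 against 77.8 CPM. The interval of Gal at E7.25 was -9.46 to -1.53, since members had 1 UMI of this galanin precursor gene.

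All measured Hox and Cdx genes of the fixed list were at least 2-fold lower than in Tbx6 cells at E7.25 (4 of 4 measured of 23, median log2 -2.32), as were 4 of 5 at E7.5 posterior (median -2.07). The medians of all genes were 0.018 and 0.014. In members at E7.25, only Hoxb1 of these genes reached the CPM minimum for a measured gene. The others, Hoxb2 and Cdx2 among them, entered only through the Tbx6 cells. A gene that enters in this way can hardly be other than lower in members. The counts and medians of this list thus partly follow from the filter and do not describe the list as a whole. Hoxb1 reached the minimum in members of both libraries. Hoxb1, which marks the hindbrain and the mesoderm from there to the tail, was at 30.0 CPM in members against 162 CPM at E7.25 and at 59.7 against 250.4 CPM at E7.5 posterior. Its ratios were -2.44 (-3.09 to -1.84) and -2.07 (-2.35 to -1.80). Hoxb2 was nearer to its level in Tbx6 cells, at 13.2 against 27.1 CPM and 36.6 against 71.2 CPM.

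Of FGF genes at E7.25, 9 of 14 measured of 22 were at least 2-fold lower in members and 1 higher (median log2 -1.29). At E7.5 posterior 7 of 11 were lower and none higher (median -1.25). Genes below the CPM minimum in members, such as Fgf4 and, at E7.25, Fgf8, entered only through the Tbx6 cells. These counts and medians thus partly follow from the filter. The ligand Fgf4 was at 1.20 against 33.6 CPM and 2.01 against 21.1 CPM. The ligand Fgf8 was at 13.2 against 20.7 CPM and 32.1 against 69.3 CPM; the interval of its ratio holds 0 at E7.25 (-1.78 to 0.38) but not at E7.5 posterior (-1.51 to -0.73). Of the feedback and target genes, Dusp6, a phosphatase of ERK, had log2 ratios of -2.06 and -2.49, Etv4 -1.36 and -1.25, Etv5 -1.09 and -1.82, and Spry2 -1.48 and -1.60. The receptor Fgfr1 was at 74.3 against 114 CPM and 111 against 139 CPM, within 2-fold, while Fgfr2 was higher at E7.25, at 21.6 against 1.94 CPM.

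Among WNT genes, Sfrp1 was the single member of the list that was at least 2-fold higher in each library, while 6 of 15 measured of 29 were lower at E7.25 (median -0.61) and 8 of 16 at E7.5 posterior (median -1.02). Axin2, a feedback target, was at 11.99 against 44.6 CPM and 18.6 against 52.1 CPM. Axin2 was below the CPM minimum in members of both libraries and entered only through the Tbx6 cells. The counts of lower WNT genes thus partly follow from the filter. Sp5, another target, was at 21.6 against 102 CPM and 47.7 against 129 CPM. Rspo3, which strengthens WNT signals, was at 51.6 against 198 CPM and 84.3 against 225 CPM. Lef1, the nuclear partner, differed less, at 153 against 234 CPM and 157 against 173 CPM. With no genes excluded in choosing members, the Rspo3 log2 ratio at E7.5 posterior was -0.38 in place of -1.42.

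Genes of retinoic acid handling lay on both sides. The synthetic enzyme Aldh1a2 was at 10.8 CPM (4.93 to 20.5) against 42.6 CPM at E7.25 and 20.6 CPM (14.8 to 27.9) against 103 CPM at E7.5 posterior. The retinoic acid carrier Crabp1 was higher in members, at 465 against 174 CPM and 273 against 77.8 CPM, as was Stra6, the receptor that takes up retinol, at 39.6 against 14.2 CPM and 33.6 against 8.88 CPM. The degrading enzyme Cyp26a1 was at 39.6 against 49.1 CPM and 30.1 against 28.1 CPM, with no difference beyond its counting error. Over the list of 16, 2 of 6 measured genes were higher and 2 lower in each library, with medians of 0.32 and 0.38. The sign of these medians depends on the settings, which gave -0.32 to 0.88 at E7.25 and -0.37 to 0.60 in the E7.5 posterior library.

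Among NOTCH genes, of which 6 of 20 were measured at E7.25 and 8 in the E7.5 posterior library, the ligand Jag1 was higher, at 49.2 against 9.04 CPM and 36.1 against 10.5 CPM. Dll1 and Dll3 helped to define the Tbx6 cells, so their lower levels in members (39.6 against 75.6 CPM and 46.7 against 113 CPM for Dll1) are not a result. The receptor Notch1 was within 2-fold, at 53.95 against 46.5 CPM and 70.3 against 63.9 CPM. In BMP signalling, the target Id3 was higher, at 245 against 96.2 CPM and 372 against 164 CPM. Counts for this list were 4 higher and 1 lower of 9 at E7.25 and 1 and 1 of 6 at E7.5 posterior, with medians of 0.48 and 0.32. Of Eph and ephrin genes, Efnb1 was higher and Epha1 lower in each library, of 5 measured. Of hedgehog genes, Gas1 was lower at E7.25, at 58.7 against 139 CPM, 1 of 4 measured, and Foxf1 higher at E7.5 posterior, 1 of 5.

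The epithelial adhesion genes Cdh1 and Epcam were lower in members than in Tbx6 cells. Cdh1, E-cadherin, was at 10.8 against 31.6 CPM and 6.02 against 52.4 CPM, and Epcam at 43.2 against 100.1 CPM and 44.7 against 119 CPM. The mesenchymal factors Twist1 and Zeb1 were higher, Twist1 at 129 against 50.4 CPM and 68.3 against 23.0 CPM, and Zeb1 at 25.2 against 10.3 CPM and 23.1 against 6.86 CPM. In the list of mesenchymal transition and adhesion genes, 4 of 21 measured were higher and 3 lower at E7.25, and 3 of 20 were higher and 3 lower at E7.5 posterior. Snai1, the factor that opens the transition in the streak, was within 2-fold, at 45.6 against 36.8 CPM and 60.7 against 58.7 CPM. When no gene was excluded, the Twist1 ratio at E7.25 was 0.81 in place of 1.36, and that of Epcam -0.26 in place of -1.21.

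Of matrix genes, 6 of 11 measured of 26 were at least 2-fold higher in members and none lower at E7.25 (median 1.14). At E7.5 posterior 2 of 9 were higher and 1 lower (median 0.86). Fibrillin Fbn2 was at 37.2 against 9.69 CPM and 34.1 against 8.35 CPM. Fbn2 was below the CPM minimum in Tbx6 cells, so it entered only through members and could hardly be lower. These counts and medians thus partly follow from the filter. Sparc, a matrix glycoprotein, was at 282 against 128 CPM and 177 against 69.7 CPM. Laminin Lamb1 was the lower gene, at 13.6 against 40.5 CPM at E7.5 posterior. Of epiblast genes, 6 of 7 measured were lower at E7.25 and 5 of 6 at E7.5 posterior. Otx2 was the 1 higher each time. In members only 4 epiblast genes reached 20 CPM in each library, so the rest entered only through the Tbx6 cells. The counts of lower epiblast genes thus partly follow from the filter. The same filter applied to the lists that follow. Pou5f1, also called Oct4, was at 188 against 527 CPM and 210 against 621 CPM. Of 15 streak and nascent mesoderm genes, 11 were measured in each library, with Cer1 higher and 6 lower at E7.25 (median -1.54) and Cer1 higher and 5 lower at E7.5 posterior (median -0.46). Of 14 presomitic genes, some of which defined the Tbx6 cells, 2 of 6 measured were lower at E7.25 and 5 of 8 at E7.5 posterior. Among imprinted genes H19 was higher in both libraries, with Igf2 at E7.25 and Cdkn1c at E7.5 posterior, of 12 and 11 measured. The S phase list (17 genes), the G2 and M phase list (18) and the 15 measured glycolysis genes were within 2-fold throughout in both libraries. As an example, the mitotic cyclin Ccnb1 was at 266 against 262 CPM and 239 against 242 CPM.

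**Figure D3:**
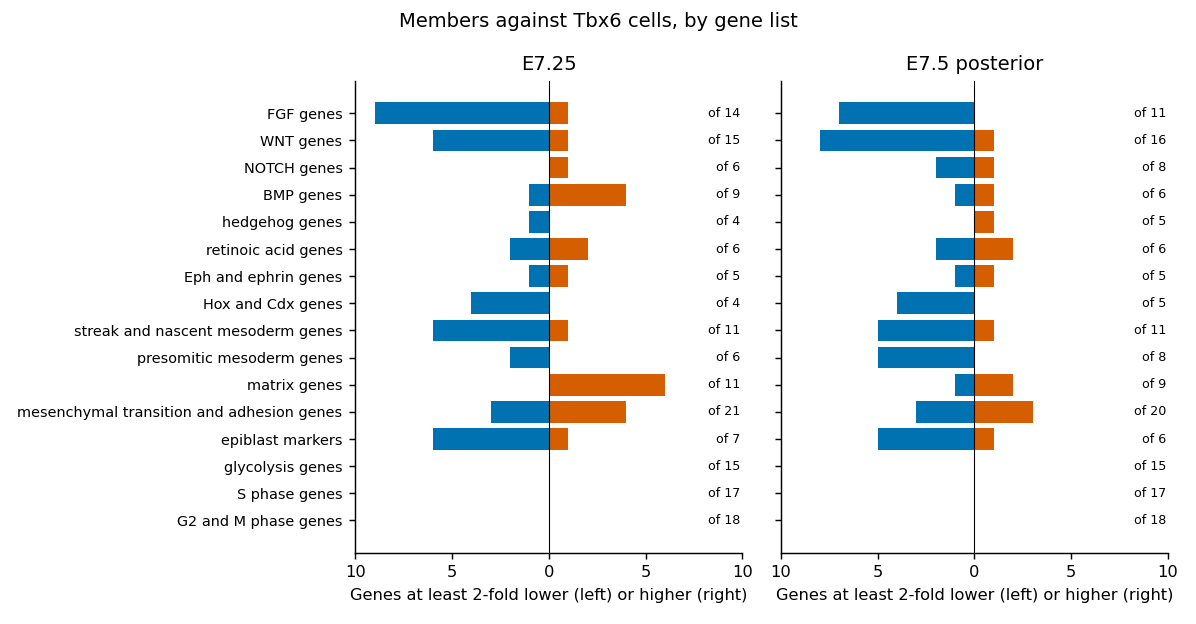
Number of genes of each list at least 2-fold lower (left of 0) or higher (right of 0) in members than in Tbx6 cells, at E7.25 and E7.5 posterior, with the number measured at the right edge. FGF, WNT, Hox and Cdx and epiblast genes lie mainly to the left, matrix genes to the right at E7.25, and cycle and glycolysis genes have none past 2-fold. Genes below the CPM minimum in members were measured only through the Tbx6 cells, so the counts to the left partly follow from this. Genes below it in Tbx6 cells were measured only through members, so the counts to the right partly follow from this too.

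Genes of later somites were at or near 0 in members. Pax1, Pax9, Myf5 and Nkx3-2, which act in sclerotome and muscle, had 0 UMIs in both libraries, and Uncx 1 and 0. Pax3, a dermomyotome gene, had 12 UMIs at E7.25 (14.4 CPM) and 9 at E7.5 posterior (4.52 CPM), against 0 and 0.269 CPM in Tbx6 cells. The segment boundary genes Mesp2 and Ripply2 were at 13.2 and 8.39 CPM at E7.25 and at 22.1 and 18.6 CPM at E7.5 posterior. Mesp1, the early mesoderm factor of streak and heart progenitors, was at 615 against 727 CPM in Tbx6 cells at E7.25 and at 550.1 against 417 CPM at E7.5 posterior, on different sides in the 2 libraries. Epha4, a receptor at somite borders, was at 97.1 against 97.5 CPM and 109 against 91.0 CPM, and the protocadherin Pcdh8 at 48.0 against 43.9 CPM and 55.2 against 32.2 CPM. The label of these cells as paraxial mesoderm thus rests on the rule's own markers and on genes shared with presomitic cells, and not on genes of formed somites. Of 20 genes in the somite list, 4 and 5 were measured, and Aldh1a2 was the 1 past 2-fold in each library.

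Of the cranial mesoderm list of 16 genes, 3 were measured in each library: Otx2 and Twist1 were at least 2-fold higher than in Tbx6 cells, and Fst lower. Tbx1, a T-box gene of head and pharyngeal mesoderm, had 11 UMIs at E7.25 (13.2 CPM) and 17 at E7.5 posterior (8.53 CPM). Tbx6 cells had 0 UMIs of it at E7.25, and 0.135 CPM at E7.5 posterior. Cyp26c1 had 0 UMIs in members, and Alx4 0 and 1.

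The second comparison was with cells that had both Hand1 and Foxf1 and no Tbx6, Hes7, Etv2 or Eomes, 285 at E7.25 and 350 in the E7.5 posterior library, which stand for lateral and extraembryonic mesoderm. Hand1 was excluded by the rule, so these values are a description as well. Of 5788 genes measured at E7.25, 2.8% were at least 2-fold higher and 4.44% lower in members (7.24% in all), and of 5453 at E7.5 posterior 1.27% and 2.59% (3.85% in all). Bmp4, a signal of extraembryonic tissue, was at 4.796 against 235 CPM and 4.02 against 128 CPM. Of BMP genes, 8 of 14 measured were lower at E7.25 (median -1.43) and 8 of 13 at E7.5 posterior (median -1.81), and none was higher. Bmp4 was below the CPM minimum in members, so it entered only through the cells compared, and these counts partly follow from the filter. All measured extraembryonic mesoderm markers were lower (8 of 8, then 6 of 6), and of lateral and cardiac markers 7 of 9 and 8 of 11 were lower. In members only 0 and 1 of the extraembryonic markers reached 20 CPM, and 3 and 5 of the lateral and cardiac markers. The others were measured only through the cells compared, so these counts largely follow from the filter and are not a result. Foxf1 is in these lists and defined the cells compared.

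Myl7 was the exception among lateral and cardiac markers. It stood higher in members than in these cells too, at 803 against 233 CPM and 453 against 223 CPM. Against Tbx6 cells, Myl7, Smarcd3 and Gata6 of this list were higher and Wnt2 lower at E7.25, of 4 measured (median 1.66). At E7.5 posterior Myl7, Smarcd3, Foxf1 and Gata6 were higher, of 5 (median 1.75). In Tbx6 cells only 2 of these markers reached 20 CPM in each library. The other measured ones entered only through members and could hardly be lower. These counts and medians thus partly follow from the filter. Gata6, a factor of heart and endoderm, was at 39.6 against 14.2 CPM and 32.6 against 10.8 CPM, and Smarcd3, a chromatin remodelling subunit of early heart cells, had log2 ratios of 1.84 and 2.14. Among genes of the list chosen after their values were seen, Nkx2-5 and Tbx5 had 0 UMIs in members of both libraries, and Tnnt2 had 1 and 3. The summed level of the 18 lateral and cardiac markers was 964 CPM in members at E7.25, beside 260.3 CPM in Tbx6 cells and 1374 CPM in cells with Hand1 and Foxf1. At E7.5 posterior these sums were 614, 159 and 1029 CPM. Myl7 alone gave 803 and 453 CPM of the sums in members, and 233 and 223 CPM of those in cells with Hand1 and Foxf1. Of NOTCH genes, 5 of 7 measured were higher in members than in cells with Hand1 and Foxf1 at E7.25, and 4 of 7 at E7.5 posterior. A gene below the CPM minimum in the cells compared entered only through members and could hardly be lower. These NOTCH counts may thus partly follow from the filter.

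The members of the E7.5 posterior library were then compared with those of E7.25. Of 5615 genes measured, 120 (2.14%) were at least 2-fold higher and 176 (3.13%) 2-fold or more lower in the E7.5 posterior members, with a median over all genes of -0.085. TMM scaling shifted every ratio by 0.11 and gave 165 higher and 119 lower, which reverses the balance. By the same limits 1.45% of genes were higher and 1.39% lower in Tbx6 cells, and 0.996% higher and 3.31% lower in all other kept cells. Either way, 2.84% of genes passed 2-fold in Tbx6 cells and 4.3% in other cells, beside 5.27% in members. The sums over members rest on fewer UMIs (834109 at E7.25 and 1992233 in the E7.5 posterior library), and their intervals are wider.

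Anterior Hox genes stood higher at E7.5 posterior. Hoxb1 was at 30.0 CPM (19.4 to 44.2) at E7.25 and 59.7 CPM (49.5 to 71.5) at E7.5 posterior, a log2 ratio of 0.99 (0.36 to 1.68). The same ratio was 0.63 (0.44 to 0.82) in Tbx6 cells and 1.32 (1.23 to 1.40) in other kept cells. Hoxb2 went from 13.2 to 36.6 CPM, a log2 ratio of 1.47 (0.55 to 2.54) beside 1.39 and 1.44. Thus the direction of both genes was shared by all 3 sets of cells.

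Several genes that were higher in members than in Tbx6 cells were also compared between the libraries. Id3 was higher at E7.5 posterior, from 245 to 372 CPM (log2 0.61, 0.38 to 0.84), and its ratio was 0.77 in Tbx6 cells. Cer1 was at 65.9 and 65.3 CPM, Adrb3 at 61.1 and 55.7 CPM, Irx1 at 71.9 and 71.3 CPM and Ppp1r1a at 110 and 108 CPM, all with ratios whose intervals hold 0. Sfrp1 was lower, from 294 to 186 CPM (log2 -0.66, interval -0.90 to -0.42), as were Otx2 from 114 to 81.3 CPM (-0.49, -0.86 to -0.11), Crabp1 from 465 to 273 CPM (-0.77, -0.96 to -0.58), Myl7 from 803 to 453 CPM (-0.83, -0.97 to -0.68) and Twist1 from 129 to 68.3 CPM (-0.92, -1.30 to -0.55). In Tbx6 cells the same genes had ratios of -0.38, -0.64, -1.16, -1.13 and -1.13, so each was lower there as well, though the interval for Sfrp1 (-0.92 to 0.18) holds 0. With at least 3 markers required of members, the Otx2 ratio turned to 0.51, so its direction depends on that choice.

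Some genes lay on different sides of 0 in members and in Tbx6 cells, a difference that could not be tested with 1 library per group. Lefty2, a NODAL antagonist, went from 92.3 to 136.5 CPM in members (log2 0.56, 0.19 to 0.95) and from 269 to 188 CPM in Tbx6 cells (-0.52, -0.68 to -0.36), and its ratio was 0.68 in other cells. Msx1, a homeobox target of BMP, went from 25.2 to 6.02 CPM in members (-2.06, -3.22 to -0.97) and from 4.52 to 11.6 CPM in Tbx6 cells (1.36, 0.25 to 2.71). The Msx1 ratio in members was 0.43 when the rule was applied to cells thinned to 5000 UMIs, so it depends on the settings. Thinning changed both the cells taken and the UMIs counted, and which of these mattered was not tested. Pcdh19, a protocadherin of paraxial mesoderm, was higher in members at E7.5 posterior, at 180.2 against 102 CPM (0.82, 0.48 to 1.18), beside 0.27 in Tbx6 cells and 0.91 in other cells.

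By list, 1 of 2 measured Hox and Cdx genes passed 2-fold, and of FGF genes Fgf8 was higher and Etv5 and Dusp4 lower, of 8. Sp5 was higher and Nkd1 lower among 12 WNT genes, Hes1 higher and Lfng lower among 8 NOTCH genes, and Msx1 and Id2 lower among 9 BMP genes. Matrix genes had a median of -0.67, with Col23a1 and Lamb1 of 11 past 2-fold. None of the 17 S phase genes passed it, and of the 18 G2 and M phase genes only Cdk1 did, on the higher side. Eno1 and Slc2a3 were the glycolysis genes past it, in opposite directions.

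**Figure D4:**
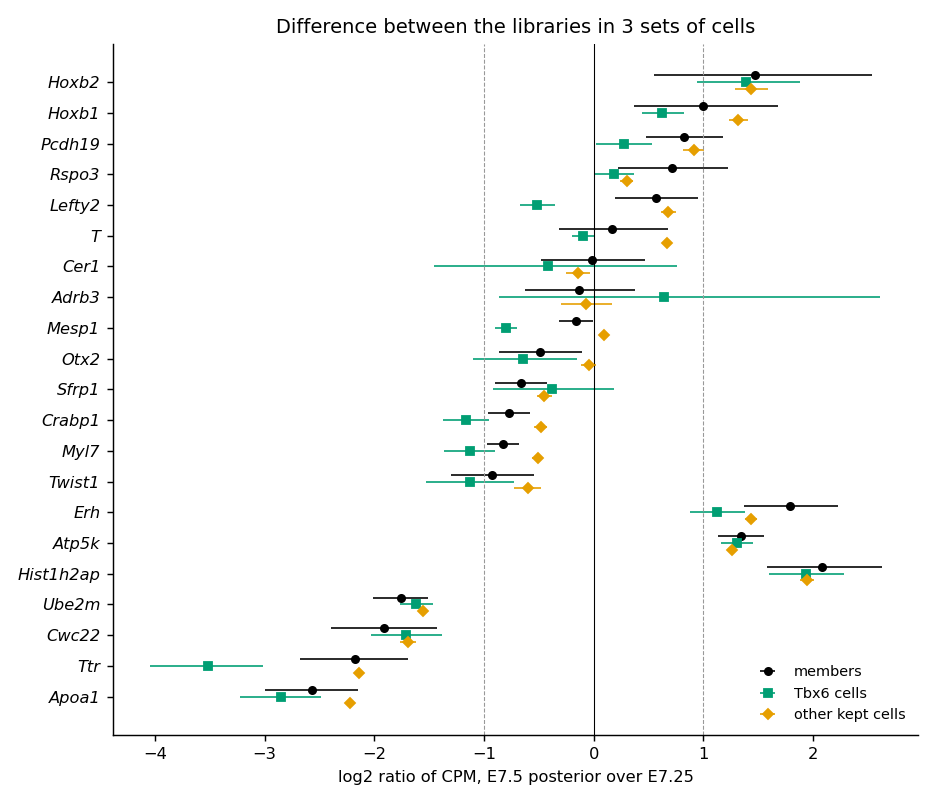
log2 ratio of CPM, E7.5 posterior over E7.25, with exact 95% intervals, for selected genes in members, Tbx6 cells and all other kept cells; dashed lines mark 2-fold. Hoxb1 and Hoxb2 lie above 0 and Crabp1, Myl7 and Twist1 below 0 in all 3 sets, while Lefty2 differs in direction between members and Tbx6 cells.

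Among the genes with the most extreme ratios between the libraries, several had like ratios in members, Tbx6 cells and other cells. The 12 highest included Hist1h2ap, Erh, Polr2l, Hmga1, Atp5k, Ahsa1, Sap18, Rasl11a, Pfdn4 and Ndufb1-ps. Erh had a log2 ratio of 1.79 in members, 1.13 in Tbx6 cells and 1.43 in other cells, and Atp5k 1.34, 1.31 and 1.26. Among the 12 lowest were Ube2m (-1.76, -1.62 and -1.55), Cwc22 (-1.91, -1.71 and -1.69), Cenpb, Tnrc6c, Hist1h3c and H19, an imprinted noncoding RNA (-2.02, -2.28 and -2.51). Hist1h2ap has near-identical copies in the genome, so its counts are uncertain.

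The remaining 6 of the 12 lowest were visceral endoderm genes: Apoc2, Apoa1, Apob, Rbp4, Ttr and Apom. Of 12 measured markers of that tissue, 9 were lower by 2-fold or more in the later library, with a median of -2.19. In Tbx6 cells 8 of 10 were lower, with a median of -2.35, and in other kept cells 12 of 14, with a median of -1.87. The summed level of the 15 markers was 1830 CPM in members at E7.25 and 733 CPM at E7.5 posterior, while the median member had 645 and 443 CPM and the highest 23356 and 16935 CPM. Without the 3 and 1 members that had Amn, Cubn and Apob, the median of the list was -0.26 in place of -2.19, and Apoa1 went from -2.57 to -0.22. The size of the difference in members therefore rests mainly on 4 cells. Against Tbx6 cells, 5 of 12 markers were higher in members at E7.25 (median 0.97) and 5 of 7 at E7.5 posterior (median 1.28). Without the 4 cells the medians were -1.33 and 0.75. The Tbx6 cells were not filtered in the same way, so these last medians compare unlike sides. The highest Tbx6 cell had 32293 CPM of these markers at E7.25, beside a median cell of 508 CPM.

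Members also varied among themselves, here by detection of Alx1. At E7.5 posterior 75 members had Alx1 and 134 did not, with median depths of 9328 and 8949.5 UMIs. A member without Alx1 had to have 2 of the other markers, so the split is tied to the rule, and the values are a description. Otx2 was at 135 CPM with Alx1 and 50.5 CPM without (log2 1.42, 0.95 to 1.90). Sfrp1 was at 325 and 106 CPM (1.62, 1.31 to 1.94), Adrb3 at 106 and 26.8 CPM (1.98, 1.38 to 2.61), Cer1 at 103 and 43.4 CPM (1.25, 0.73 to 1.78), and Myl7 at 701 and 311 CPM (1.17, 0.98 to 1.37). The LIM homeobox gene Lhx1, needed for head formation, was at 152 and 67.9 CPM. These 6 genes were thus higher in the members with Alx1, while Irx3, at 75.8 and 77.4 CPM, was not.

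Posterior genes were on the other side of this split. Hoxb1 was at 13.8 CPM with Alx1 and 86.1 CPM without (log2 -2.64, -3.74 to -1.71), Hoxb2 at 5.51 and 54.5 CPM (-3.31, -5.22 to -1.88), and T at 9.64 and 96.3 CPM (-3.32, -4.66 to -2.23). Aldh1a2 was at 6.89 and 28.4 CPM, Rspo3 at 28.9 and 116 CPM, Fst at 22.0 and 73.4 CPM and Lefty2 at 56.5 and 182 CPM. The segmentation genes Dll1 (20.7 and 61.6 CPM), Mesp2 (8.27 and 30.0 CPM) and Ripply2 (4.13 and 26.8 CPM) were lower with Alx1 too. Twist1 (73.0 and 65.5 CPM), Crabp1 (263 and 278 CPM) and Tcf15 (138 and 131 CPM) hardly differed between the 2 subsets, and their intervals hold 0.

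At E7.25 only 33 members had Alx1, fewer than the 50 required, and the split was added after seeing the data. Otx2 was at 161 CPM in the 33 cells and 86.8 CPM in the other 56 (log2 0.89, 0.28 to 1.504), Sfrp1 at 447 and 206 CPM, Cer1 at 112 and 39.6 CPM and Adrb3 at 105 and 35.9 CPM. Hoxb1 had 1 UMI in cells with Alx1 and 24 in those without, and T 1 and 47. Of the 18 genes plotted by the Alx1 split, those with intervals away from 0 in both libraries had the same sign in each. Tcf15 was lower with Alx1 at E7.25 (-0.82, -1.55 to -0.14), unlike at E7.5 posterior (0.07).

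**Figure D5:**
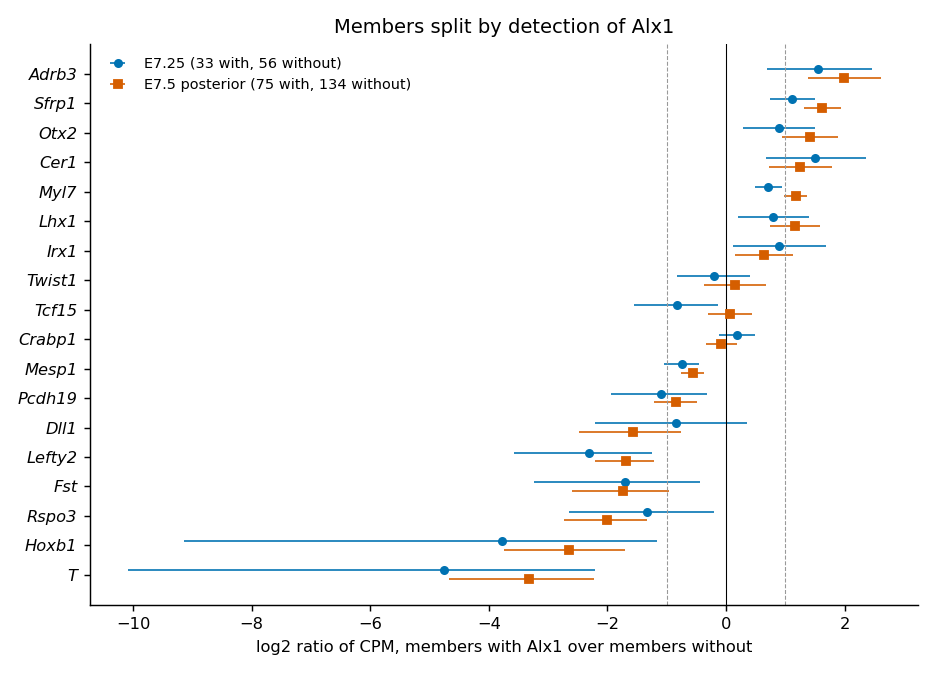
log2 ratio of CPM between members with and without a UMI of Alx1, with exact 95% intervals, for 18 genes at E7.25 and E7.5 posterior; dashed lines mark 2-fold. Adrb3, Sfrp1, Otx2 and Cer1 lie to the right and Lefty2, Fst, Rspo3, Hoxb1 and T to the left in both libraries.

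A split by Tcf15 at E7.5 posterior, 136 cells with and 73 without, was described in the same way. Rspo3 was at 44.4 CPM with Tcf15 and 164 CPM without (log2 -1.88, -2.37 to -1.41), Fst at 36.9 and 90.3 CPM, Pcdh8 at 40.7 and 84.3 CPM, and Mesp1 at 450 and 751 CPM (-0.74, -0.91 to -0.56). Otx2 was at 96.4 and 51.2 CPM (0.91, 0.36 to 1.51) and Cer1 at 77.6 and 40.6 CPM. Myl7 was at 447 and 466 CPM and Hoxb1 at 55.7 and 67.7 CPM, with intervals that hold 0, whereas both genes differed by Alx1 beyond counting error. Foxc1 was at 52.7 and 110 CPM, which the rule favours in cells without Tcf15.

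Detection of Otx2 and Hoxb1 in the same cell was compared too. At E7.25, 1 of 46 members with Otx2 had Hoxb1 (2.17%, 0.055 to 11.5), against 12 of 43 without Otx2 (27.9%, 15.3 to 43.7), at median depths of 9243 and 8353 UMIs. After thinning to 5000 UMIs the numbers were 0 of 36 (0 to 9.74%) and 7 of 50 (14%, 5.82 to 26.7), and these intervals overlap. At E7.5 posterior 17 of 83 with Otx2 had Hoxb1 (20.5%, 12.4 to 30.8) and 42 of 126 without (33.3%, 25.2 to 42.3). Thinned, they were 8 of 52 (15.4%) and 31 of 141 (22.0%), again with overlapping intervals. Hoxb1 was thus less frequent beside Otx2 by intervals that do not overlap only at E7.25 and only before thinning. Among visceral endoderm reference cells 2.91% and 4.53% had Hoxb1.

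Markers of other tissues in members were counted as lists. Of 15 blood and endothelium markers 8 had a UMI in each library, with summed levels of 33.6 and 23.1 CPM and Tal1, Hba-x, Hbb-bh1 and Cdh5 at 0. Extraembryonic mesoderm markers summed to 45.6 and 51.2 CPM over 12 genes, with Tbx4 and Postn at 0, and trophoblast markers to 45.6 and 24.6 CPM over 12. Node and notochord markers summed to 65.9 and 84.3 CPM over 11 genes, most of it T, with Shh at 0. Definitive endoderm markers summed to 222 and 152 CPM over 12, of which Cer1 and Spink1 gave the most, and Foxa1 was at 0. Neural ectoderm markers summed to 161 and 133 CPM over 10, with Sox1 and Hesx1 at 0, and epiblast markers to 592 and 568 CPM over 12. The part of these transcripts in the levels given above was not tested.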

How the data were processed

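Single-cell RNA of 3 libraries (E7.0, E7.25, E7.5 posterior; 1 each) was analysed. The deposited counts are raw UMI counts per gene and barcode from Cell Ranger 6.0.1, per the file headers, filtered to called cells and not scaled by the authors; the genome build is not given in the sources used here. Suspensions passed a 40 µm strainer for a target of 10000 cells, per the labels. Of the gene identifiers, 32158 were in GENCODE M21 (GRCm38), which gave coordinates, and 127 were not.

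Cells with at least 1000 detected genes and at most 10% mitochondrial UMIs were kept. UMIs were summed per class and library and scaled to CPM. Sums have exact Poisson, ratios conditional binomial and shares Clopper-Pearson 95% intervals. A gene was measured at 20 CPM or more on either side. A gene below this in members thus entered only through the class compared, and a gene below it in that class only through members. The direction of such a gene was set by the filter, so list counts and medians partly follow from this, both higher and lower. A sum of 0 was set to 3 UMIs as a bound, and no ratio was given where both sides had 3 or fewer. Shares used cells thinned to 5000 UMIs. Doublets were scored with Scrublet in scanpy 1.11.5 at an expected rate of 0.05. At E7.5 posterior its own limit marked 0 cells, below a minimum of 0.5%, so the 570 highest scores were marked instead, for use in an alternative only. Other tools were Python 3.11.15, numpy 2.4.6, scipy 1.17.1, pandas 2.3.3, R 4.3.3 and edgeR 4.0.16 (TMM factors only). The ratios and intervals were tested on simulated data.

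Genes named are those of 27 fixed lists and, at 50 CPM or more outside mitochondrial, ribosomal protein, Gm, Rik, Xist, Tsix, Y-linked and rule genes, the 12 highest and 12 lowest between libraries and against Tbx6 cells in both libraries. The members, lists and rules were chosen with earlier results of these data known. Alternatives were 11 planned settings and 1 added after seeing the data. A few genes that these rules name are not reported here.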

Additional observations from a re-analysis of the deposited data

How the results depend on the processing

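Intervals cover counting error only, and with 1 library per group no spread between embryos is known. No paired analysis was possible because each group is 1 library. With at least 3 markers required, the share of members, in order of stage, was 0.0504, 0.404 and 0.794% of kept cells, and with no excluded genes 3.66, 4.37 and 7.24%; the rule on cells thinned to 5000 UMIs gave 2.11% at E7.5 posterior. The number of genes past 2-fold between the libraries, 296, was 1076 with at least 3 markers, 163 with no exclusions, 648 with the thinned rule, 1475 with no CPM minimum and 90 with a minimum of 50 CPM. Against Tbx6 cells at E7.25, 323 became 1019, 150, 703, 1648 and 86 under these settings. At E7.5 posterior 215 became 337 with at least 3 markers, 104 with no exclusions, 1922 with no CPM minimum and 88 with a minimum of 50 CPM. Fewer cells or lower minimums admit genes with few UMIs.

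With at least 3 markers the ratios between the libraries changed sign for the visceral endoderm median (1.11), Apoc2 (1.94), Apoa1 (1.25), Apob (0.72), Rbp4 (0.41), Ttr (1.64), Apom (1.11), Lfng (0.28) and Otx2 (0.51). Lfng was at 0.028 with no exclusions, Msx1 at 0.43 with the thinned rule and Apom at 0.068 without the members that had Amn, Cubn and Apob. Against Tbx6 cells at E7.25, Apoc2 was at -1.47 with at least 3 markers, -0.23 without predicted doublets and -0.57 without those members, and Hotairm1 at 0.50 with at least 3 markers. Beyond these members, the cause was not tested. TMM scaling moved the share of higher genes among those past 2-fold between the libraries from 40.5% to 58.1%, and against Tbx6 cells at E7.25 from 52.6% to 43.1%. List medians against Tbx6 cells ranged, at E7.25 and then in the E7.5 posterior library, from -0.32 to 0.88 and -0.37 to 0.60 for retinoic acid genes, -1.62 to -0.45 and -1.09 to -0.057 for streak genes, 0.48 to 1.36 and 0.26 to 1.03 for matrix genes, 0.100 to 0.74 and 0.091 to 0.51 for BMP genes, and 0.25 to 2.10 and 1.31 to 2.11 for lateral and cardiac markers. In the E7.5 posterior library FGF genes ranged from -1.90 to -0.43 and WNT genes from -1.13 to -0.49. Between the libraries the matrix median ranged from -0.76 to -0.21. Past 2-fold under every setting run were 16 of 29 named genes between the libraries, and 27 of 37 and 32 of 37 against Tbx6 cells at E7.25 and E7.5 posterior.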
